A study of Mus musculus and Callithrix jacchus with 22 samples.

Results

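Newly formed oligodendrocytes (NFOL) were the cells that the deposited annotation of single-cell ATAC-seq named NFOL in neocortex of mouse and of marmoset, a small New World monkey. They numbered 821 of 35064 cells. Of these, 110 of 19145 were mouse cells and 711 of 15919 were marmoset cells. ATAC-seq reads open chromatin through a transposase (Tn5) that inserts sequencing adapters where DNA is accessible.

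Oligodendrocytes make the myelin that insulates axons. In the accepted order of the lineage, a dividing oligodendrocyte precursor (OPC) becomes a committed precursor (COP), then an NFOL, which has left the cell cycle and begun to switch on myelin genes, then a myelin-forming (MFOL) and finally a mature oligodendrocyte (MOL). Olig2, a transcription factor of the whole lineage, and Mbp, a structural protein of compact myelin, are the usual markers. No gene-level values were used here, so the name NFOL was not checked against either marker and stands as the authors gave it.

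The study followed how chromatin of cortical cells changes after birth. Wild-type C57BL/6 mice gave somatosensory and motor cortex at P1, P7 and P21 (days after birth), prepared with combinatorial indexing on plates. Marmoset libraries came from cortex of wild-type animals, labelled somatosensory, at birth (Day0) and in adults labelled Y7 and Y8, and were made with a 10x droplet kit. For these marmoset libraries the study's methods name motor cortex as well, while its results name somatosensory cortex alone. The labels also carry a protocol for sorting td-Tomato-positive neurons, whereas the study describes these samples as unfractionated tissue. Such a sort would set the share of every glial type. In the study td-Tomato came from a reporter mouse line, while the animals here are given as wild-type. By its methods, marmoset cells were dissociated with papain and sorted as live cells by dyes, and mouse cells were fixed. What these steps did to glial shares was not tested. Nothing in the labels said that the libraries came from separate animals, so every permutation p-value below measures the spread between libraries, which may be technical. The chi-square p-values below take cells as independent and measure counting error only. Species and library method went together and cannot be told apart, so the species stand side by side with no test.

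In each species the NFOL were 1 whole cluster of 1 age class. The mouse NFOL were all the cells of cluster 25, and all 110 came from P21. That cluster held 0 of 4866 P1 cells, which allows a share of up to 0.0617%, and 0 of 6127 P7 cells, which allows up to 0.0490%. The marmoset NFOL were all the cells of cluster 7, and all 711 were adult. That cluster held 0 of the 8407 newborn cells in the table. The 2 mouse limits cover counting error only, and no limit is given for the newborn marmoset, because its table held no group under 110 cells and a smaller one may have been filtered out. The deposited names were given by cluster and age, and the study's methods state a minimum of 100 cells for such a group, so the 110 mouse NFOL lay just above that minimum. The smallest named mouse group held 102 cells, and 24 of the 25 mouse groups left unassigned held fewer than 100. A difference between ages that carry the name and ages that do not is therefore fixed by the naming and was not tested.

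The same naming set which other stages could be set beside the NFOL. At P21 the mouse annotation held only 1 other lineage stage, MFOL, with 337 cells in cluster 15. The OPC cluster of the mouse, cluster 14, held 129 cells at P1 and 254 at P7 under the name OPC, while its 91 cells at P21 were unassigned. No mouse cell was named COP or MOL. The adult marmoset libraries carried all 5 stages, with 662 OPC, 179 COP, 711 NFOL, 1924 MFOL and 2477 MOL.

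The P21 libraries, 2 with a plain number in the title and 2 with the word Pool, held 1321 to 3407 cells and 5601844 to 15904940 reads each. The 5 adult marmoset libraries had 1209 to 1643 cells and from 5139726 to 7213483 reads each. P21 numbered library 1 and Pool library 1 shared 557 combinations of cell indices, against about 525 if the combinations had been drawn independently, and numbered library 2 and Pool library 2 shared 331, against about 287. No shared combination was an NFOL in both libraries, while 22 were an NFOL in 1 of them. Adult marmoset libraries shared 1 to 5 barcodes a pair, none of them an NFOL in both. The chi-square test over cells did not separate the cell type counts of the 2 Pool libraries (p = 0.604). Nor did it separate those of Y8 library 3 from Y8 library 1 (chi-square p = 0.100) or from Y8 library 2 (chi-square p = 0.258). These p-values do not show that the libraries were alike. Y8 library 1 differed from Y8 library 3 when only lineage stages were counted, with a chi-square p of 0.0148 over cells, and from Y8 library 2 over all types, with 0.00457. Each was kept as a library of its own, as titled. Cell barcodes cannot decide whether libraries came from separate samples. The 2 Pool libraries shared 0 index combinations, against about 102 if drawn independently.

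NFOL were a small and uneven population in the P21 mouse libraries. P21 numbered library 1 held 66 NFOL beside 104 MFOL, so that 38.8% of its NFOL and MFOL together were NFOL (exact 95% binomial interval 31.5 to 46.6%, counting error only). Numbered library 2 held 16 beside 71, or 18.4% (10.9 to 28.1%). Pool library 1 held 19 beside 80, or 19.2% (12.0 to 28.3%). Pool library 2 held 9 beside 82, or 9.89% (4.62 to 17.9%). Numbered library 1 thus held 66 of the 110 mouse NFOL, and its interval did not meet that of any other P21 library. The mean share was 21.6% ± 12.2 (SD, n = 4 libraries), and 15.8% without numbered library 1. As a share of all cells with a name, NFOL made up 1.98%, 0.82%, 1.41% and 0.73% in the same order, with a mean of 1.23% ± 0.580 (SD, n = 4).

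The NFOL share of the 2 series of mouse libraries overlapped. The Pool libraries averaged 14.5% of NFOL and MFOL together and the numbered libraries 28.6%, a difference of -14.1 percentage points (exact permutation test, two-sided, p = 0.667, where 2 against 2 libraries cannot go below 0.333). Libraries of the same number shared cell indices, and within both such pairs the Pool library lay lower (19.2% against 38.8% and 9.89% against 18.4%), though 2 pairs cannot go below p = 0.5 in an exact sign-flip permutation test. Without numbered library 1 the difference was -3.85 points, and without numbered library 2 it was -24.3 points. Among all named cells the difference of -0.33 points turned to 0.25 points without numbered library 1.

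In the adult marmoset libraries the NFOL share lay apart between the Y7 and the Y8 libraries. The labels do not say how many animals, dissections or runs lay behind each age, so age cannot be told apart from these. Y7 library 1 held 56 NFOL, 4.88% of its lineage cells, and Y7 library 2 held 53, or 6.11%. The Y8 libraries held 183 (14.2%), 232 (16.4%) and 187 (15.1%). All 3 Y8 libraries lay above both Y7 libraries, with means of 15.3% ± 1.13 (SD, n = 3) and 5.49% ± 0.868 (SD, n = 2). The difference was 9.76 points (exact permutation test, two-sided, p = 0.1, the smallest that 2 against 3 libraries can give). Among all named cells, NFOL made up 3.44% and 4.38% in the Y7 libraries and 11.7%, 14.1% and 12.8% in the Y8 libraries, a difference of 8.94 points with the same p of 0.1 by the exact permutation test. Pyramidal neurons, here all cells with an excitatory neuron name, share that denominator. They were 15.7% and 11.2% of named cells in the Y7 libraries and 2.25 to 2.74% in the Y8 libraries. Their part in the difference was not tested. With only cells at or above the median reads of the species, the difference was 21.03 points of named cells and 26.9 points of lineage cells, each again with the smallest p of 0.1 by the exact permutation test. Over all 5 libraries the mean was 9.28% ± 4.98 (SD, n = 5).

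The stages on either side of NFOL shifted between Y7 and Y8 as well. MOL, the mature cells, averaged 70.5% of lineage cells at Y7 and 26.6% at Y8, MFOL 13.4% and 42.2%, COP 1.07% and 3.99%, and OPC 9.44% and 12.0%. Set against MFOL alone, the NFOL share of the Y7 and Y8 libraries was not separated among all cells. NFOL were 31.6% and 27.2% of NFOL and MFOL together in the Y7 libraries and 23.8%, 28.5% and 27.6% in the Y8 libraries, and the ranges overlapped. The difference was -2.80 points (exact permutation test, two-sided, p = 0.5), and -0.57 points without Y7 library 1. With only cells at or above the median reads of the species, 4249, it was -19.6 points (exact permutation test, p = 0.1, the smallest possible). The 2 groups then did not overlap, but that separation rests on few Y7 MFOL. In Y7 library 2 the deepest MFOL held 4125 reads, so only NFOL were left there. In Y7 library 1 the deepest MFOL held 4951 reads. Among all cells the share over the 5 libraries was 27.7% ± 2.82 (SD, n = 5), beside 21.6% ± 12.2 in the 4 mouse libraries.

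**Figure D1:**
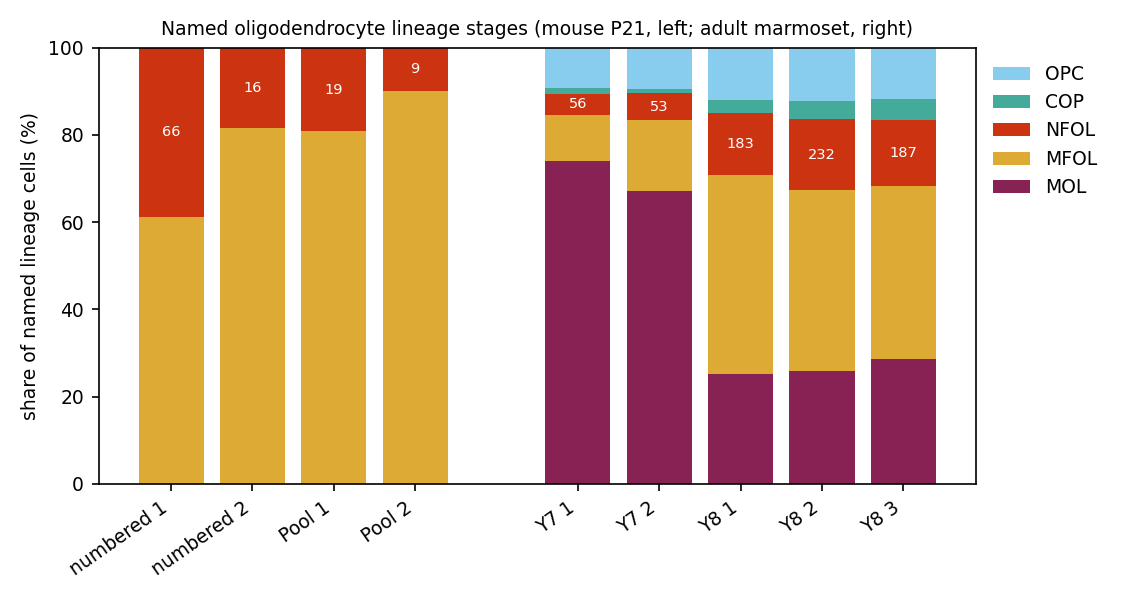
Share of named oligodendrocyte lineage cells (%, y axis) held by each stage in the 4 P21 mouse libraries (left) and the 5 adult marmoset libraries (right), with the number of NFOL printed in white. The NFOL band is widest in P21 numbered library 1 at 38.8% and runs from 4.88% to 16.4% in marmoset, where MOL fill most of both Y7 bars. The denominators differ, since only NFOL and MFOL were named in P21 mouse and 5 stages in marmoset. Of NFOL and MFOL alone, the marmoset NFOL share ran from 23.8% to 31.6%.

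The reads behind each NFOL were then compared with those of the other stages of the same libraries. The authors had sampled the libraries to a like depth per cell, so read numbers describe the sampled data. In mouse, NFOL carried more reads than MFOL. The median NFOL held 4264 reads in numbered library 1, 4467 in numbered library 2, 5950 in Pool library 1 and 4800 in Pool library 2, the last from 9 cells. The median MFOL held 1609, 1644, 1601 and 1957 reads in the same order. Every NFOL median lay above every MFOL median. In the 3 libraries with at least 10 cells of both stages the ratio was 2.99-fold (2.65- to 3.72-fold), or 1.58 ± 0.27 on the log2 scale (SD, n = 3), higher in 3 of 3 libraries (exact sign-flip permutation test over libraries, two-sided, p = 0.25, the smallest that 3 libraries can give). With Pool library 2 included, the log2 difference was 1.51 over 4 libraries (exact sign-flip permutation test, p = 0.125, again the smallest possible).

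Mouse NFOL resembled neurons in this measure more than they resembled MFOL. Their median reads were 1.01 to 1.46 times those of pyramidal neurons, which made up most of each P21 library. These neurons pool all excitatory names, layer IV neurons included. MFOL medians were 0.38 to 0.46 times those of pyramidal neurons. MFOL also crowded the lowest reads of the table, which started at 1000. Between 28.0% and 46.3% of MFOL in a library held fewer than 1500 reads, against 0 to 12.1% of NFOL. Whether MFOL below the table's minimum of 1000 reads were lost, and with them a lower NFOL share, was not tested, since such cells are not in the tables used here.

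**Figure D2:**
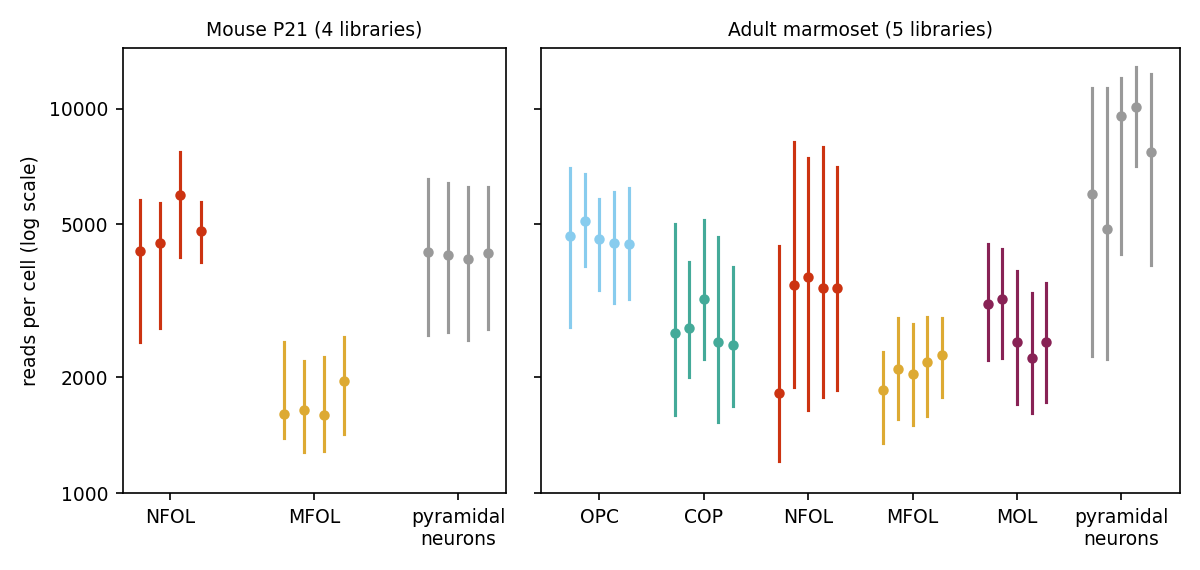
Median reads per cell (points, log axis) with the range from the 25th to the 75th percentile of cells (vertical lines), by stage, in each library in the order given in the text. In mouse all NFOL medians lie near those of pyramidal neurons and above those of MFOL, and in marmoset the NFOL lines are the longest of the lineage.

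In marmoset the NFOL medians lay between those of OPC and MFOL in 4 of 5 libraries. Their medians were 1817 reads in Y7 library 1, 3480 in Y7 library 2, and 3644, 3412 and 3424 in the Y8 libraries. OPC medians ran from 4456 to 5094, COP from 2424 to 3202, MFOL from 1852 to 2287 and MOL from 2249 to 3206. NFOL thus lay below OPC in 5 of 5 libraries, at 0.659-fold or -0.60 ± 0.43 on the log2 scale (SD, n = 5, exact sign-flip permutation test, two-sided, p = 0.0625, the smallest that 5 libraries can give, 0.25 adjusted over 4 stages). They lay above MFOL in 4 of 5 libraries, at 1.46-fold or 0.55 ± 0.34 on the log2 scale (exact sign-flip permutation test, p = 0.125, adjusted 0.25). Against MOL the log2 difference was 0.20 ± 0.57 over 5 libraries and against COP 0.16 ± 0.48 over the 4 libraries with at least 10 COP, with adjusted p = 0.625 for both by the same exact permutation test. Neither difference exceeded the spread between libraries.

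Y7 library 1 decided much of that spread. It was the library in which NFOL lay below MFOL, COP and MOL in median reads. Without it the log2 difference was 0.44 against MOL and 0.38 against COP, and -0.41 against OPC. The difference in NFOL median reads between Y8 and Y7 libraries was 0.47 on the log2 scale (exact permutation test, p = 0.3) and 0.0049 without Y7 library 1.

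The width of the NFOL distribution set it apart from the other lineage stages in every adult marmoset library. The 75th percentile of reads was 3.63 to 4.54 times the 25th percentile among NFOL, beside 1.73 to 2.59 among OPC, 1.99 to 3.13 among COP, 1.61 to 1.83 among MFOL and 1.91 to 2.22 among MOL. The NFOL range did not overlap that of any other stage. Pyramidal neurons of the same libraries ranged from 1.80 to 5.07. In mouse the same ratio was 1.43 to 2.34 among NFOL and 1.72 to 1.79 among MFOL.

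Both ends of the marmoset distribution were filled. Between 1000 and 2000 reads lay 227 NFOL (31.9%), between 2000 and 4000 lay 162 (22.8%), between 4000 and 8000 lay 169 (23.8%), and from 8000 to 15000 lay 153 (21.5%). In the highest range were 4 of 1924 MFOL (0.208%) and 39 of 2477 MOL (1.57%), with 73 of 662 OPC (11.0%) and 227 of 506 pyramidal neurons (44.9%). At 10000 reads or more stood 105 NFOL (14.8%, and 10.7 to 18.9% by library), 32 OPC (4.83%), 16 MOL (0.646%), 1 COP and 0 of 1924 MFOL. Deep cells were therefore present among NFOL of all 5 libraries and nearly missing among MFOL. Below 1500 reads were 39.3% of NFOL in Y7 library 1 and 19.3 to 22.6% in the other 4, beside 11.8 to 30.6% of MFOL.

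The NFOL share of a library thus moved with the reads that a cell had to have. Among marmoset cells of 1000 to 2000 reads NFOL were 21.3% of NFOL and MFOL together, at 2000 to 4000 reads 14.2%, at 4000 to 8000 reads 62.1% and at 8000 to 15000 reads 97.5%. In mouse the same 4 shares were 7.63%, 22.6%, 73.4% and 73.9%. Restricted to cells with at least the median reads of their species, 4249 in marmoset and 3444 in mouse, the mean NFOL share of NFOL and MFOL was 85.1% in marmoset and 66.3% in mouse, against 27.7% and 21.6% among all cells. Y7 library 2 entered that marmoset mean with NFOL only, since its deepest MFOL held 4125 reads.

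**Figure D3:**
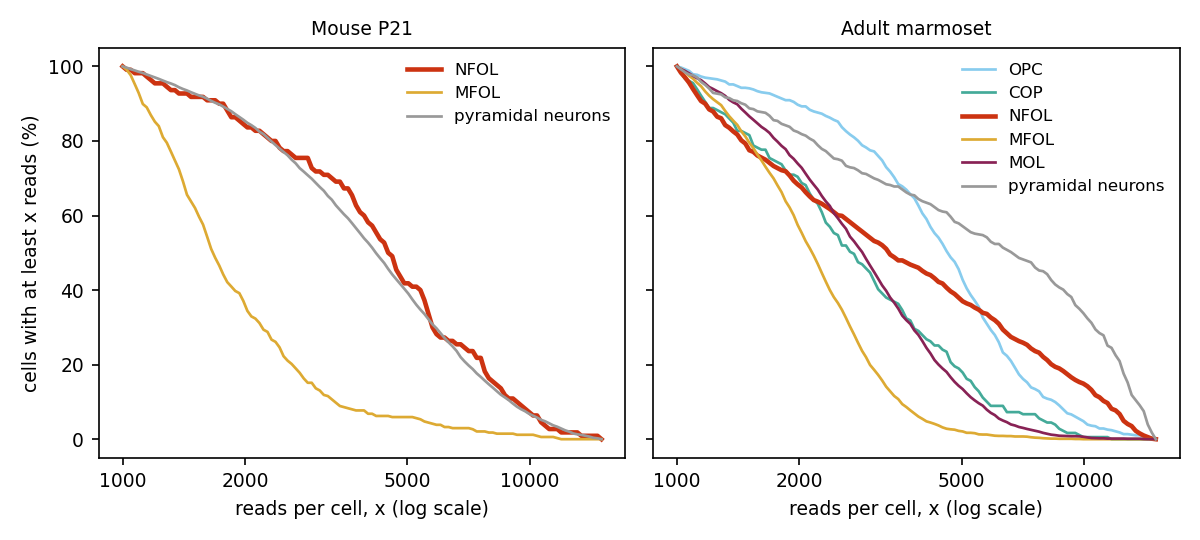
Share of cells (%, y axis) with at least the number of reads on the x axis (log scale), by stage, with cells pooled over the P21 mouse libraries (left) or the adult marmoset libraries (right). The mouse NFOL curve runs along that of pyramidal neurons, and the marmoset NFOL curve starts low with MFOL and COP but ends above all other lineage stages, with 14.8% of cells at 10000 reads or more.

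The number of peaks with a read in a cell largely followed its reads. In mouse the median NFOL had reads in 2334, 2494, 3159 and 2594 peaks in numbered libraries 1 and 2 and Pool libraries 1 and 2, and the median MFOL in 862, 891, 882 and 1059. The log2 difference was 1.59 ± 0.22 over 3 libraries, close in size to that of the reads, with 3 of 3 higher (exact sign-flip permutation test, p = 0.25, the smallest possible). In marmoset the NFOL medians were 1030 and 1927 peaks in the Y7 libraries and 2094, 2007 and 2128 in the Y8 libraries. They were above those of MFOL in 5 of 5 libraries (log2 0.68 ± 0.36) and below those of OPC in 5 of 5 (log2 -0.44 ± 0.46), each with p = 0.0625, the smallest possible, and 0.125 adjusted over 4 stages by the exact sign-flip permutation test. The log2 difference was 0.33 ± 0.60 against MOL (adjusted p = 0.25) and 0.29 ± 0.52 against COP (adjusted p = 0.375) by the same exact permutation test, and without Y7 library 1 it was 0.58, 0.54 and, against OPC, -0.24.

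Reads of NFOL were spread over more peaks than equal numbers of reads in the other lineage stages. In marmoset the median NFOL had reads in 565 and 554 peaks per 1000 reads in the Y7 libraries and in 551, 553 and 558 in the Y8 libraries. The medians of OPC, COP, MFOL and MOL ranged from 510 to 537 over the same libraries. No value of another lineage stage reached the lowest NFOL value. Peaks were next fitted on reads within each library, with reads and their square on the log2 scale. At equal reads NFOL had 7.85% more peaks than OPC (6.18 to 9.29% by library), 7.35% more than MFOL (4.88 to 9.13%) and 7.38% more than MOL (5.19 to 8.60%), each higher in 5 of 5 libraries. Against COP the excess was 6.97% (6.02 to 8.37%), higher in 4 of 4. For OPC, MFOL and MOL the exact sign-flip permutation test gave p = 0.0625, the smallest that 5 libraries can give, and 0.0833 adjusted over 4 stages. For COP the exact test gave p = 0.125, the smallest for 4 libraries, also 0.125 adjusted. On the log2 scale the 4 differences lay between 0.097 and 0.11, with SDs between libraries of 0.014 to 0.021, and each kept its sign when any 1 library was left out.

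In marmoset OPC, MFOL and MOL the peaks per 1000 reads were lower in cells with more reads, whereas the level of marmoset NFOL was nearly the same throughout. The level of mouse NFOL, given below, was lower in cells with more reads. From 1000 to 2000 reads the median marmoset NFOL had 559 peaks per 1000 reads, and in the next 3 ranges 553, 551 and 553. MFOL started at 539 and ended at 478, the last from 4 cells, MOL went from 544 to 485 and OPC from 551 to 497. The gap between NFOL and MFOL was positive in 5 of 5 libraries at 1000 to 2000 reads (14.9 to 31.0 peaks per 1000 reads), in 5 of 5 at 2000 to 4000 (23.5 to 45.3) and in the 3 libraries with at least 5 cells of each stage at 4000 to 8000 (37.3 to 47.0). COP, with 9 cells in the highest range, stood at 560 there and at 509 to 542 in the lower ranges.

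Pyramidal neurons shared the high ratio in part. In the Y7 libraries their medians were 563 and 559 peaks per 1000 reads, beside 565 and 554 for NFOL. In the Y8 libraries the neurons stood at 521, 529 and 539 and the NFOL at 551, 553 and 558. These medians are not at equal reads, since the neurons held more reads. By range of reads, with cells pooled over libraries, the neurons stood at 575, 572, 561 and 530. NFOL stood at 559, 553, 551 and 553, so the neurons lay above them in all ranges but the highest. How far cells of another type within cluster 7 contributed was not tested, since no gene-level values were used here.

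The mouse gap between NFOL and MFOL had the same sign. Mouse NFOL had reads in 552, 546, 543 and 558 peaks per 1000 reads in numbered libraries 1 and 2 and Pool libraries 1 and 2, and MFOL in 536, 542, 543 and 544. The values for Pool library 1 were nearly equal. At equal reads NFOL had 4.13% more peaks than MFOL (3.47 to 5.25%), higher in 3 of 3 libraries (exact sign-flip permutation test, p = 0.25, the smallest possible). P21 pyramidal neurons had 551 to 555 peaks per 1000 reads. By range of reads, with cells pooled over libraries, mouse NFOL stood at 566, 556, 544 and 527. MFOL stood at 544, 528, 530 and 527, and pyramidal neurons at 568, 561, 548 and 534. NFOL and MFOL were thus nearly equal in the highest range, with 17 NFOL and 6 MFOL. Pyramidal neurons lay above NFOL in every range.

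**Figure D4:**
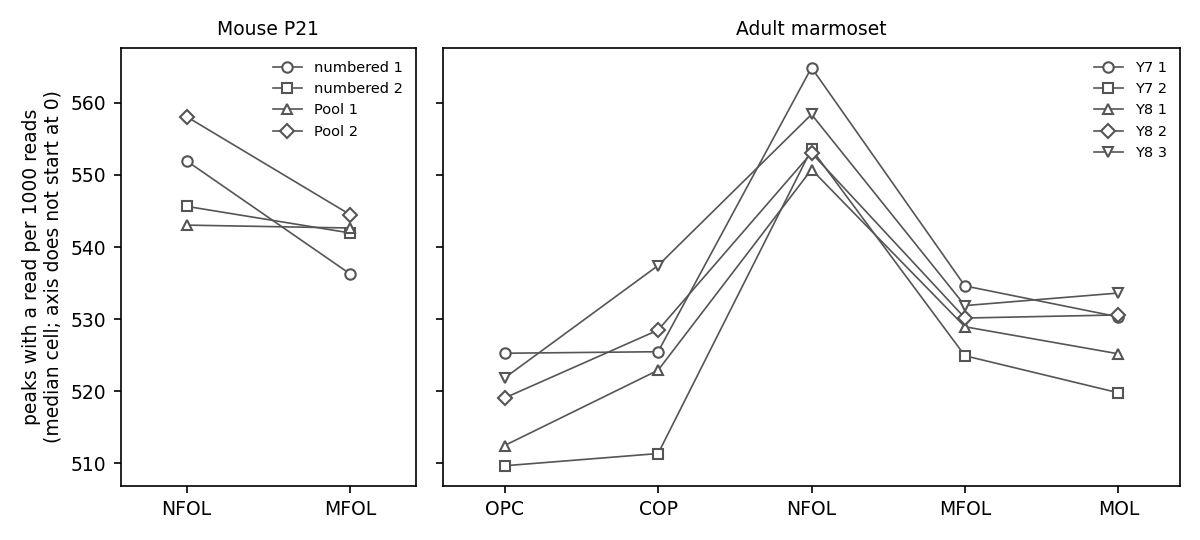
Peaks with a read per 1000 reads of the median cell (y axis, not starting at 0) by lineage stage, with 1 line per library, for P21 mouse (left) and adult marmoset (right). Every marmoset line peaks at NFOL, between 551 and 565, and in mouse the NFOL ends lie at 543 to 558 beside 536 to 544 for MFOL.

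The mouse cell names carry a first index that divides the P21 cells into 12 sets, and the NFOL share differed between sets of different depth. This division was chosen after the values were seen. In 3 of the 11 sets that held lineage cells the median pyramidal neuron had 1451 to 2684 reads, and in the other 8 it had 3405 to 6729. In the 3 shallow sets 42 of 65 NFOL and MFOL were NFOL, or 64.6% (exact 95% interval 51.8 to 76.1%). In the 8 deeper sets 68 of 382 were NFOL, or 17.8% (14.1 to 22.0%). The shallow sets, with a further set of 7 cells and no lineage cell, held 22.2% of P21 cells, 38.2% of the NFOL and 6.82% of the MFOL.

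The split had the same direction within each library, though on few cells. In numbered library 1 NFOL were 29 of 35 NFOL and MFOL (82.9%) in shallow sets and 37 of 135 (27.4%) in deeper sets. In numbered library 2 they were 8 of 12 and 8 of 75 (10.7%). Pool library 1 held 2 of 7 and 17 of 92 (18.5%), and Pool library 2 held 3 of 11 and 6 of 80 (7.5%). The intervals of the shallow and deeper sets overlapped in both Pool libraries. Against pyramidal neurons, which do not belong to the lineage, there were 2.72 NFOL per 100 in shallow sets and 1.41 in deeper sets. That ratio was higher in shallow sets in 3 of 4 libraries and lower in Pool library 1 (0.833 against 2.10). MFOL numbered 1.49 and 6.49 per 100 pyramidal neurons, so the MFOL side of the share differed more.

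Over the 11 sets, the median reads of pyramidal neurons and the NFOL share had Pearson's r = -0.86 and Spearman's rho = -0.75. This is a description with no test, since the sets share libraries and the smallest holds 18 NFOL and MFOL together. NFOL medians were above MFOL medians in 11 of 11 sets, by 1.09- to 4.01-fold. Medians of both stages were higher in sets whose neurons had more reads (Spearman's rho = 0.96 for NFOL and 0.79 for MFOL, a description), and the MFOL medians ran from 1212 to 2193. Without the shallow sets the mean NFOL share of NFOL and MFOL was 16.0% ± 8.89 (SD, n = 4) against 21.6%, and the log2 difference in reads was 1.90, over the 2 libraries that still held 10 cells of both stages.

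**Figure D5:**
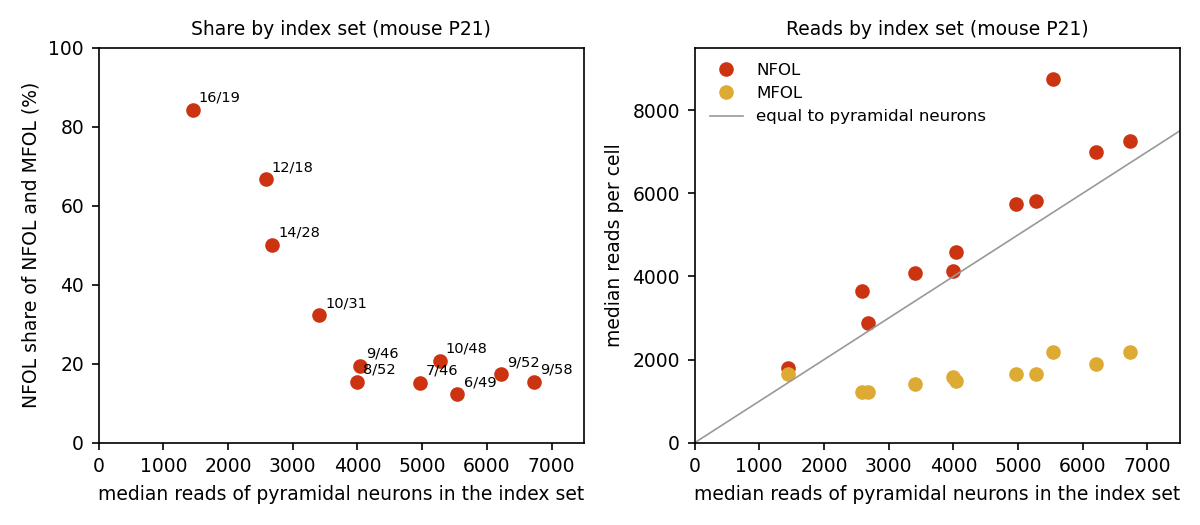
Left, NFOL as a share of NFOL and MFOL (%, y axis) against the median reads of pyramidal neurons (x axis) in the 11 index sets of the P21 mouse libraries that held lineage cells, with NFOL over NFOL plus MFOL printed beside each point. Right, median reads of NFOL and of MFOL (y axis) in the same sets, where NFOL lie near or above the line of equality with pyramidal neurons and MFOL, from 1212 to 2193, lie below it in all sets but the shallowest.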

How the data were processed

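The authors trimmed and aligned reads with Bowtie2 to mm10 (mouse) or CalJac3 (marmoset), dropped unpaired, low-quality and duplicate reads, called peaks with MACS2, and clustered cells from a binary peak matrix. For doublets, the treatment is not stated by any source used here. The tables hold 1 line per cell with 2 counts as deposited by the authors: reads, and peaks with a read. Beforehand the authors had thinned each library so that reads per cell were alike across conditions, so differences in reads between libraries are differences after thinning. In the clustering step they split clusters by age and removed groups under 100 cells, which remain without a name in the mouse table. Reads ran from 1000 to 14997 in both species, and peaks from 300 in mouse and 453 in marmoset.

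NFOL, and the lists of other stages, were taken from the deposited names. The members and lists were chosen with earlier results of these data known. Libraries were the replicates. Cells without a name (272 at P21) were left out of denominators. Pyramidal neurons pooled the callosal, layer IV, subcerebral and corticothalamic names in P21 mouse. In adult marmoset they pooled the layer IV, corticothalamic and generic excitatory names. Stages were compared within libraries holding at least 10 cells of both, since both stages come from 1 library, by an exact sign-flip test of log2 medians. Peaks at equal reads came from least squares per library on log2 reads and its square. Groups of libraries were compared by exact permutation. All permutation tests were two-sided, with a threshold of 0.05. Benjamini-Hochberg adjustment covered the comparisons between stages only. The fit at equal reads was checked on simulated peak counts, and the permutation tests on small examples with known answers. Depth limits the precision of shares through cell number, given as exact 95% binomial intervals, and a 0 as 3 counts. The rule for named genes named none, because the tables hold no gene values. Alternatives added after seeing the data left out shallow index sets or lowered the minimum to 5 cells. Others scaled reads to pyramidal neurons of the index set, or paired numbered with Pool libraries. Another averaged libraries whose cell type counts the chi-square test did not separate. Python 3.11.15, numpy 2.4.6, pandas 2.3.3 and SciPy 1.17.1 were used.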

Additional observations from a re-analysis of the deposited data

Results flagged for a closer look

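In 5 of 24 groups of 4 or 5 library values examined, the lowest library stood farther from the rest than Dixon's limit allows, and it was Y7 library 1 each time. Chance gives about 1 in 20 groups, or 1.2 here, and the 5 values share the same 56 NFOL. The median NFOL of that library had 1817 reads, against 3412 to 3644 in the other 4 adult marmoset libraries, and reads in 1030 peaks, against 1927 to 2128. The log2 difference in reads between NFOL and OPC was -1.36 there, against -0.55 to -0.33. For peaks it was -1.23, against -0.44 to -0.14. The log2 difference in peaks between NFOL and MFOL was 0.046, against 0.78 to 0.95. The same library had the highest NFOL ratio of peaks to reads, 565 per 1000, and 39.3% of its NFOL held fewer than 1500 reads.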

How the results depend on the processing

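Values were recomputed under alternatives for 29 results, and 128 of 130 with a library left out and 110 of 125 others were unchanged. Unchanged meant the same direction and side of the threshold, or a move smaller than the spread between libraries. Most of this was fixed beforehand. No main test could pass the threshold, and leaving out a library raises the smallest possible p. A mean share cannot move by the full spread when 1 library is left out. With a library left out, only a reversed difference could therefore count against a result, which happened in 2 values. Among the others, only stage comparisons without pairing could pass the threshold. With only cells of at least the median reads, the NFOL share became 16.4% of named cells and 23.2% of lineage cells in marmoset, 85.1% of NFOL and MFOL in marmoset, and 66.3% of NFOL and MFOL (the named lineage) in mouse, and the log2 difference between NFOL and OPC turned to 0.39 in reads and 0.56 in peaks, because shallow cells were removed by construction. The 85.1% counts Y7 library 2, where no MFOL reached that median. With means over cells in place of medians, the log2 difference between NFOL and OPC in peaks was 0.0075. The difference between Pool and numbered libraries in the share of named cells turned to 0.092 points without the shallow index sets and ranged from -0.909 to 0.246 points when 1 library was left out, turning positive without numbered library 1 (0.246) or Pool library 2 (0.0091).

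Without pairing by library (no replicate block), the exact permutation test passed the threshold for NFOL against OPC in reads (log2 -0.60, adjusted p = 0.0317) and peaks (log2 -0.44, adjusted p = 0.0317). For peaks at equal reads the same exact test gave adjusted p = 0.0106 against OPC (log2 0.092), MFOL (0.075) and MOL (0.086). Against COP (0.092) this exact test gave adjusted p = 0.0286. The paired test cannot go below 0.0625, or 0.125 for COP. These unpaired values at equal reads cannot add to the paired ones. Both stages are scored by mean residuals of 1 fit per library, which cancel out, so the 2 means have opposite signs. Once the sign is alike in every library, the smallest p follows by construction. These fits also share cells of 1 library between the groups compared. Pairing the numbered and Pool libraries of the same number (added after seeing the data) gave the same differences, with p = 0.5, the smallest an exact test on 2 pairs can give. A minimum of 20 cells left 1 mouse library and gave no mouse depth value. Averaging libraries linked by a chi-square p over 0.05, which joined the 2 Pool and, through Y8 library 3, all 3 Y8 libraries, gave 23.9% of NFOL and MFOL in mouse and 28.5% in marmoset, and 8.75% of lineage cells in marmoset. Unassigned cells, present at P21 in mouse, gave no marmoset value. Cell number limits the mouse values: 3 of 4 libraries held 19 NFOL or fewer.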
